A study of Mus musculus with 8 samples.

Results

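Open chromatin around 39 collagen and extracellular matrix genes was followed from mouse embryonic fibroblasts (MEFs) through day 5 and day 10 of reprogramming to embryonic stem cells (ESCs). The 39 genes were taken from a list of fibrillar and other collagens, elastic fibre and cross-linking genes, adhesive and matricellular glycoproteins, proteoglycans, and 2 proteases with 1 inhibitor, out of 21938 protein-coding genes in the annotation. The locus of a gene was its body with 50 kb to each side in mm10 (GRCm38). The 39 loci merged into 35 windows that covered 6.46 Mb, because Col3a1 and Col5a2, Col4a1 and Col4a2, Col6a1 and Col6a2, and Dcn and Lum have overlapping loci. A peak in an overlap was counted once in totals and for both genes in their own counts.

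Open DNA was mapped by ATAC-seq. A transposase inserts sequencing adapters where DNA is exposed, so that a peak marks a stretch where nucleosomes leave the DNA exposed. The 8 libraries came from 4 groups of 2, and the authors deposited 1 peak list per group. MEFs and ESCs were not infected. The cells of day 5 and day 10 were MEFs infected with retroviruses for Oct4, Sox2, Klf4 and Myc (OSKM) and with a FLAG control vector, and were kept after infection in ESC medium with vitamin C. All groups were labelled wild type, with no gene knocked out. MEFs, infected cells and ESC replicate 2 were of the strain C57BL/6J-OG2, which carries a green fluorescent reporter of Oct4, and ESC replicate 1 was labelled C57Bl6J. The labels describe ESCs on feeder MEFs, whereas the methods describe gelatin and another medium, so medium and cell type cannot be told apart in the comparisons with ESCs. Day 5 and day 10 cells are mixtures, in which fewer cells with an open site and a less open site in every cell cannot be told apart.

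The MEF list held 56514 peaks, the day 5 list 36219, the day 10 list 35226 and the ESC list 48486. The number of reads behind each list is unknown, and a longer list can come from deeper libraries. The names of the peaks and files point to intervals shared by both libraries of a group, so a site called in 1 library alone would be absent from its list and a narrow peak can be the sliver that 2 calls share. With 1 list per group there is no replicate spread and no test between groups. Every interval below is a 95% Wilson interval and covers counting error only. Of 5 fibroblast markers, all 5 had a start-site peak in MEFs, 4 on each day and 2 in ESCs. Of 5 pluripotency markers, 2, 1, 1 and 5 had one, in the same order.

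The extracellular matrix is the fibrous scaffold that connective tissue cells secrete around themselves. Collagen chains wind into triple helices, are trimmed and cross-linked outside the cell and form fibres, sheets or beaded filaments, while fibrillins and elastin give elastic recoil and proteoglycans hold water and space the fibres. Fibroblasts are the main makers of this scaffold, and ESCs instead grow as compact epithelium-like colonies on a thin basement membrane. The transition from a mesenchymal to an epithelial state is an early step of OSKM reprogramming.

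At the 39 loci, 324 MEF peaks stood against 151 from day 5, 148 from day 10 and 148 from ESCs. That was 0.573% of the MEF list (0.514% to 0.639%), 0.417% of the day 5 list (0.356% to 0.489%), 0.420% of the day 10 list (0.358% to 0.493%) and 0.305% of the ESC list (0.260% to 0.358%). Per 100 kb of window, MEFs had 5.01 peaks at the matrix loci, day 5 had 2.34, day 10 had 2.29 and ESCs had 2.29. The windows of all protein-coding genes held 2.79, 1.75, 1.81 and 2.44 peaks per 100 kb. The matrix loci were thus denser in peaks than the coding windows in MEFs, at day 5 and at day 10, and slightly sparser in ESCs. The DNA covered by peaks at the loci was 278092 bp for MEFs, 102197 bp for day 5, 112980 bp for day 10 and 104444 bp for ESCs, with median peak widths of 707, 566, 646 and 632 bp.

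Fewer peaks than in MEFs were listed for 36 of the 39 genes at day 5, for 36 at day 10 and for 34 in ESCs. Among protein-coding genes with a MEF peak in their window, fewer peaks were listed for 72.7% at day 5, for 67.8% at day 10 and for 48.6% in ESCs. The 36 genes of day 5 and of day 10 were the same, and 33 genes had fewer peaks than in MEFs in all 3 other lists. More peaks than in MEFs were listed for 2, 2 and 3 matrix genes, against 11.2%, 13.0% and 34.9% of protein-coding genes. A gene with many MEF peaks has more to lose, and the median was 8 MEF peaks for the matrix genes and 5 for all genes with any. Among genes with at least 5 MEF peaks, 34 of 35 matrix genes had fewer on each day and 33 had fewer in ESCs, whereas the shares of all such genes were 86.4%, 79.0% and 61.8%. That floor selects genes by their MEF count, which itself favours a lower count elsewhere. It does not match the matrix genes to the others in MEF peaks, so it cannot remove that difference.

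These counts change with the length of the lists. With each list cut to its 35226 highest-scoring peaks, the loci held 203 MEF peaks, 146 of day 5, 148 of day 10 and 108 of ESCs. Fewer peaks than in MEFs were then listed for 25, 25 and 30 matrix genes, against 42.6%, 33.5% and 41.6% of protein-coding genes. More peaks were then listed for 8, 8 and 4 matrix genes. The share of all protein-coding genes with more peaks was not computed at this length, so these counts have no background.

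**Figure D1:**
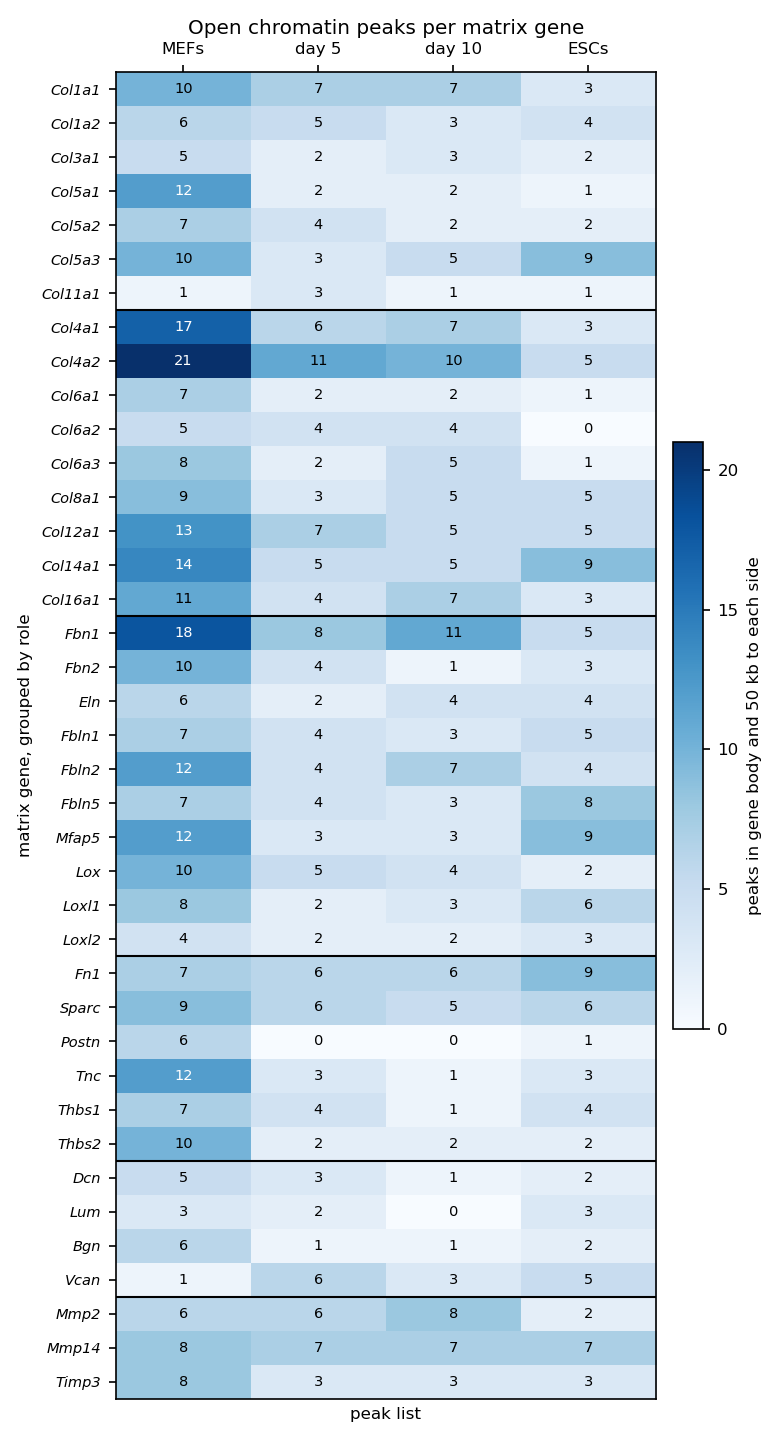
Number of peaks within the gene body and 50 kb to each side for each of the 39 matrix genes (rows, grouped by role between black lines) in the 4 peak lists (columns), with the count printed in each cell and shaded from 0 to 21. Counts were highest in MEFs for most genes, and Postn had 6, 0, 0 and 1 peaks.

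The fibrillar collagens form the ropes of connective tissue. Counts below are given in the order MEFs, day 5, day 10, ESCs where no list is named. Col1a1 and Col1a2 encode the chains of type I collagen, the bulk of the fibres in skin, bone and tendon. Col1a1 had 10 peaks in MEFs, 7 on each day and 3 in ESCs, and Col1a2 had 6, 5, 3 and 4. Col3a1, which encodes the collagen of reticular fibres, had 5, 2, 3 and 2. Of the type V chains, which set fibre diameter, Col5a1 fell from 12 listed peaks in MEFs to 2, 2 and 1. Col5a2 had 7, 4, 2 and 2 peaks. Col5a3 differed in that its ESC count of 9 was close to its MEF count of 10, with 3 and 5 peaks on the days between. Col11a1, a cartilage fibril collagen, had 1 MEF peak, at its start, and 3, 1 and 1 peaks in the other lists. Of the 50 MEF peaks at the 7 fibrillar collagen loci, 16 (32.0%) had an overlapping peak at day 5, 17 (34.0%) had one at day 10 and 12 (24.0%) had one in ESCs. Over all MEF peaks these shares were 34.9%, 36.7% and 33.3%, which also stand beside the shares of the other roles below.

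Among the 9 other collagens, Col4a1 and Col4a2, the type IV chains of the basement membrane, lie head to head and share 1 start-site region. Col4a1 had 17, 6, 7 and 3 peaks and Col4a2 had 21, 11, 10 and 5, with 9 MEF peaks common to both. The chains of type VI collagen, which forms beaded filaments around cells, had 0 or 1 peak each in ESCs. Col6a1 had 7, 2, 2 and 1, Col6a2 had 5, 4, 4 and 0, and Col6a3 had 8, 2, 5 and 1. Col8a1, a network collagen of vessel walls, had 9, 3, 5 and 5. The collagens that sit on the surface of fibrils were Col12a1 with 13, 7, 5 and 5, Col14a1 with 14, 5, 5 and 9, and Col16a1 with 11, 4, 7 and 3. Of 95 MEF peaks at these 9 loci, 23 (24.2%) were covered at day 5, 28 (29.5%) were at day 10 and 14 (14.7%) were in ESCs, and all 9 genes had fewer peaks than in MEFs in every other list.

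The elastic fibre and cross-linking loci together held fewer peaks on the days than in ESCs. Their 10 loci had 94 MEF peaks, 38 of day 5, 41 of day 10 and 49 of ESCs. Of the MEF peaks, 23 (24.5%) were covered at day 5, 29 (30.9%) were at day 10 and 24 (25.5%) were in ESCs. Fbn1, which encodes the main microfibril protein fibrillin-1, had 18, 8, 11 and 5, and its relative Fbn2 had 10, 4, 1 and 3. Eln, the gene of elastin, had 6, 2, 4 and 4 peaks. The fibulins, which bridge elastin and microfibrils or bind the basement membrane, split. Fbln1 had 7, 4, 3 and 5, Fbln2 had 12, 4, 7 and 4, and Fbln5 had 7, 4, 3 and 8, which made it 1 of the 3 matrix genes with more peaks in ESCs than in MEFs. The Fbln5 start region held 2 ESC peaks and 1 MEF peak, and the excess in ESCs rests on that split. Mfap5, a microfibril glycoprotein gene, had 12, 3, 3 and 9. Of the lysyl oxidase genes, whose enzymes cross-link collagen and elastin, Lox had 10, 5, 4 and 2, Loxl1 had 8, 2, 3 and 6, and Loxl2 had 4, 2, 2 and 3. The day 5 and day 10 peaks of the Loxl2 locus lay at the starts of its neighbours R3hcc1 and Chmp7. Its other MEF peaks were absent on both days.

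Adhesive and matricellular glycoproteins link cells to the fibres or tune that link. Postn, which encodes periostin, was the only gene of the 39 with MEF peaks and no peak on either day, at 6, 0, 0 and 1. Tnc, which encodes the anti-adhesive protein tenascin-C, had 12, 3, 1 and 3. The thrombospondins Thbs1 and Thbs2 had 7, 4, 1 and 4 and 10, 2, 2 and 2 peaks. Sparc, whose protein binds collagen and calcium, had 9, 6, 5 and 6. Fn1, which encodes fibronectin, had 7, 6, 6 and 9, so its count was lowest on the days and highest in ESCs. Of 51 MEF peaks at these 6 loci, 14 (27.5%) were covered at day 5, 11 (21.6%) were at day 10 and 10 (19.6%) were in ESCs.

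The small leucine-rich proteoglycan genes had at most 6 peaks each in any list, with gene bodies of 38.5 kb (Dcn), 7.58 kb (Lum) and 12.3 kb (Bgn). Dcn (decorin) had 5, 3, 1 and 2 peaks, Lum (lumican) had 3, 2, 0 and 3, and Bgn (biglycan) had 6, 1, 1 and 2. Vcan, which encodes the large proteoglycan versican, ran the other way, with 1, 6, 3 and 5 peaks. Of 12 MEF peaks at the 4 proteoglycan loci, 4 (33.3%) were covered at day 5, 3 (25.0%) were at day 10 and 2 (16.7%) were in ESCs. Mmp2, a gelatinase gene, had 6, 6, 8 and 2 peaks, and Mmp14, whose membrane-bound product activates MMP2, had 8, 7, 7 and 7. Timp3, the matrix-bound inhibitor, had 8, 3, 3 and 3. Of 22 MEF peaks at these 3 loci, 10 (45.5%) were covered at day 5, 11 (50.0%) were at day 10 and 4 (18.2%) were in ESCs, against 34.9%, 36.7% and 33.3% of all MEF peaks. The peaks are few, and the shares were not split by position. At Mmp14, those covered on both days included peaks at the starts of its neighbours Mrpl52 and Lrp10. A further one, covered at day 10 and not at day 5, lay in a region at a start of Slc7a7.

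The share of MEF peaks still covered in the other lists differed with their position. Of the 324 MEF peaks, 36 lay at a start of a matrix gene, meaning within 500 bp of an annotated transcript start, 96 elsewhere in a matrix gene body, 30 at a start of another gene and 162 in the flanks. Over all positions, 90 MEF peaks overlapped a day 5 peak by at least 1 bp (27.8%, 23.2% to 32.9%), 99 a day 10 peak (30.6%, 25.8% to 35.8%) and 66 an ESC peak (20.4%, 16.3% to 25.1%). The shares over all MEF peaks were 34.9%, 36.7% and 33.3%. When the overlap had to span at least 50% of both peaks, 16.4%, 21.0% and 11.7% of the matrix peaks were covered. That rule was not applied to all MEF peaks, so these shares cannot be set against the ones before. On neither day had 213 of the 324 a counterpart (65.7%, 60.4% to 70.7%), against 59.4% of all MEF peaks.

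At start sites of any gene, 52 of 66 MEF peaks in the loci were covered at day 5 (78.8%, 67.5% to 86.9%), against 82.0% of all MEF peaks at start sites. The number was 53 at day 10 (80.3%, 69.2% to 88.1%), against 85.7%. In ESCs it was 44 (66.7%, 54.7% to 76.8%), against 83.9%. On neither day were 12 of the 66 covered (18.2%, 10.7% to 29.1%), against 12.2%. The share in ESCs was thus the one furthest from that of all start-site peaks.

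Outside start sites, 38 of 258 MEF peaks were covered at day 5 (14.7%, 10.9% to 19.6%), against 19.0% of all MEF peaks outside start sites. At day 10 the number was 46 (17.8%, 13.6% to 23.0%), against 20.1%. In ESCs it was 22 (8.53%, 5.70% to 12.6%), against 16.3%. On neither day were 201 of the 258 covered (77.9%, 72.5% to 82.5%), against 75.4%. The matrix intervals for day 10 and for neither day thus include the share of all MEF peaks, that for day 5 includes it narrowly, and that for ESCs lies below it. Of the 96 MEF peaks inside the bodies of the matrix genes, 9 were covered at day 5 (9.38%, 5.01% to 16.9%), 13 at day 10 (13.5%, 8.09% to 21.8%) and 5 in ESCs (5.21%, 2.24% to 11.6%). Of the 162 flanking peaks, some of which lie in neighbouring genes, 29 (17.9%), 33 (20.4%) and 17 (10.5%) were covered. For a like comparison, peaks outside start sites were also split by whether they lay inside any gene. Inside any gene, the shares of 129 MEF peaks at the loci were 11.6%, 15.5% and 6.98%, against 17.7%, 19.4% and 14.9% of all MEF peaks. Outside genes, those of 129 peaks were 17.8%, 20.2% and 10.1%, against 20.2%, 20.7% and 17.5%.

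**Figure D2:**
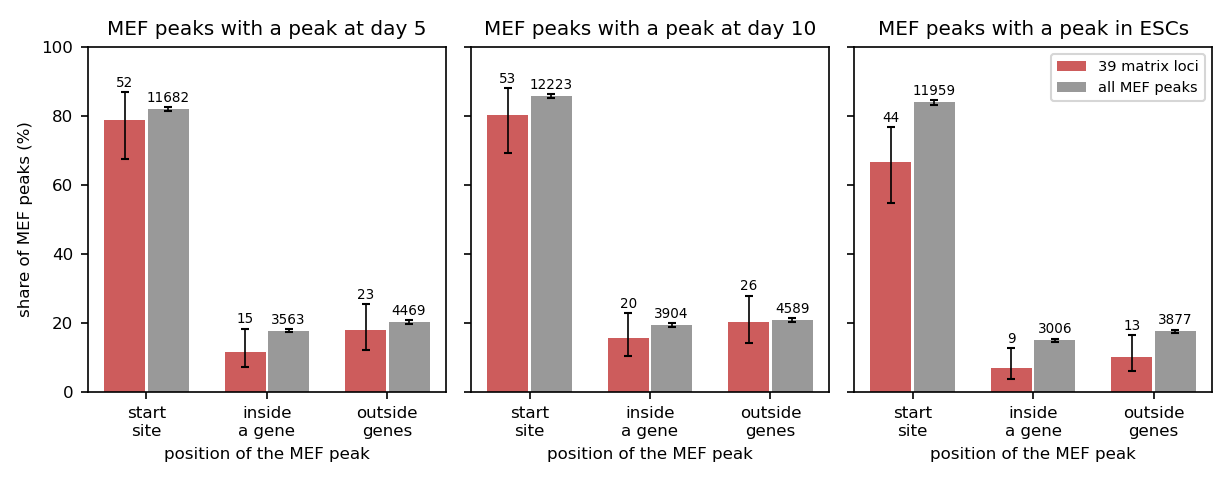
Share of MEF peaks (%, vertical axis) that overlap a day 5, day 10 or ESC peak (panels), for peaks at a start site, inside a gene or outside genes, at the 39 matrix loci (red) and over all MEF peaks (grey). Bars carry 95% Wilson intervals and the number of peaks covered, and the shares at start sites, between 66.7% and 85.7%, stand far above the others.

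Start sites were examined gene by gene. In MEFs, 36 of the 39 genes had a peak at an annotated start, compared with 29 on each day and 24 in ESCs. The shares among all protein-coding genes were 63.3%, 56.2%, 59.1% and 60.9%. Some annotated starts lie inside the gene, so the start of the principal transcript was also used alone, a choice made after the lists had been seen. By that start, 35, 27, 26 and 21 matrix genes had a peak, against 59.2%, 52.4%, 55.2% and 56.1% of all genes with a principal transcript. The principal start of 25 genes had a peak in MEFs and on both days, 3 had it on 1 of the days and 7 on neither.

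The 7 genes whose principal start had a peak in MEFs and on neither day were Col1a1, Col6a3, Eln, Fbln1, Loxl1, Postn and Bgn. Postn had a MEF peak of 606 bp over its start on chromosome 3, from 54360539 to 54361144, and none nearby in the other 3 lists. Col6a3 had a MEF peak of 414 bp over exon and intron next to its start, from 90843532 to 90843945 on chromosome 1, likewise absent elsewhere. Bgn had one of 313 bp in an exon, from 73483725 to 73484037 on chromosome X, and no day or ESC peak there. The start peaks of Fbln1 and Loxl1, of 976 bp and 1737 bp, were missing on both days and overlapped by ESC peaks of 702 bp and 853 bp. The ESC peak lay at the start of Fbln1 but more than 500 bp from the only annotated start of Loxl1.

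At Col1a1 and Eln, too, a peak still overlapped the MEF start peak in other lists, but more than 500 bp from the principal start. The Col1a1 MEF peak ran for 1340 bp on chromosome 11 from 94936173, which lies upstream of the principal start at 94936224, to 94937512. The day 5 peak began at 94936960, the day 10 peak at 94936897 and the ESC peak at 94936968, all inside the gene. The Eln MEF peak lay just upstream of the gene, and a day 10 peak of 563 bp overlapped its far end, while day 5 and ESCs had no peak there. Fbln2 had a start peak in MEFs, at day 10 and in ESCs and none at day 5, and Mfap5 had one at its principal start in MEFs and at day 5 only. Vcan kept a wide start region in all 4 lists, with 3411, 3083, 1659 and 3344 bp of peak, but its day 10 peak lay more than 500 bp from the principal start.

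Other starts stayed marked on both days and were missing in ESCs. The start region of Dcn had 1689 bp of peak in MEFs, 1340 at day 5 and 1150 at day 10, and no ESC peak. That of Col3a1 had 3002 bp in MEFs, 57 at day 5 and 1026 at day 10, and no ESC peak. Col6a1, Col6a2, Col16a1, Mmp2, Mmp14 and Timp3 showed the same presence on both days and absence in ESCs. All 3 protease and inhibitor genes belonged to this set. Conversely, Col5a3 had no start peak except in ESCs, and Lum and Loxl2 had none in any list.

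Most matrix starts are poor in CpG dinucleotides, the sites of DNA methylation. The observed to expected CpG ratio over 500 bp to each side of the principal start had a median of 0.51 (0.18 to 0.82) for the 25 starts with a peak in MEFs and on both days and of 0.30 (0.21 to 0.74) for the 7 on neither day. Among all protein-coding genes the medians were 0.75 and 0.50. Of the 25 matrix starts with a ratio under 0.6 and a MEF peak, 18 had a peak at day 5 (72.0%), 17 at day 10 (68.0%) and 12 in ESCs (48.0%), against 71.7%, 77.4% and 72.3% of all such genes. Of the 10 with a ratio of at least 0.6, 9, 9 and 8 had one, against 92.0%, 95.2% and 94.0%. Low ratios did not always go with absence, since Sparc, at 0.22, had a start peak in all 4 lists, and Timp3, at 0.66, had none in ESCs.

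**Figure D3:**
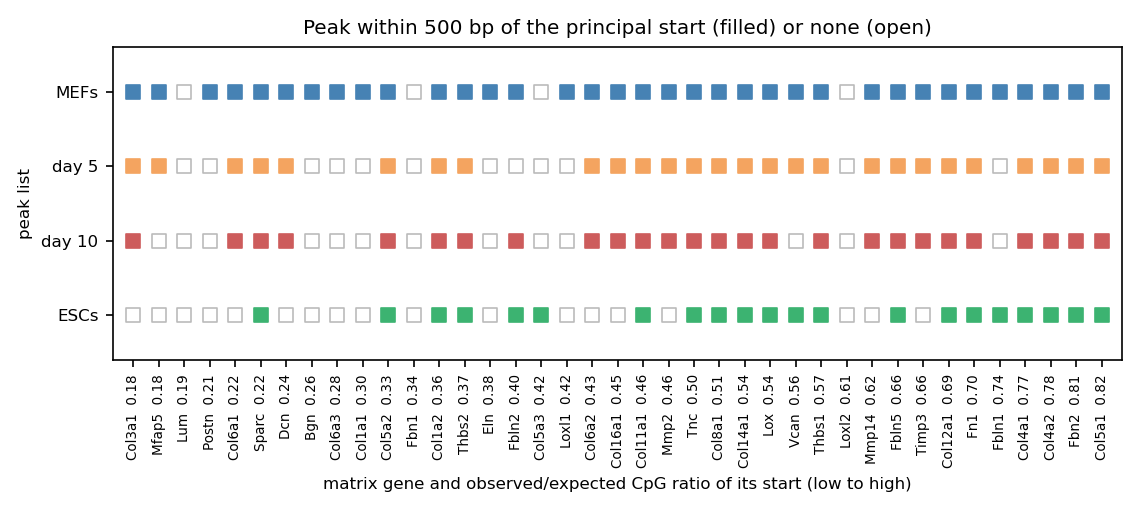
Presence (filled square) or absence (open square) of a peak within 500 bp of the principal start of each matrix gene (columns, ordered by the observed to expected CpG ratio written after the name) in the 4 lists (rows). MEF squares are filled for 35 genes and ESC squares for 21, and of the 12 rightmost genes, with ratios of at least 0.57, 8 are filled in all 4 rows.

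The sequences before 4 starts show this range. They are the 250 bases upstream of a RefSeq start (GRCm38.p6), with each CpG in capitals, for 2 genes whose start peak was missing on both days (Postn, Col6a3) and 2 where it remained (Col3a1, Col5a1). RefSeq promoters were at hand for 24 of the 39 genes.
Postn, upstream of the start, chr3:54360857-54361106, plus strand: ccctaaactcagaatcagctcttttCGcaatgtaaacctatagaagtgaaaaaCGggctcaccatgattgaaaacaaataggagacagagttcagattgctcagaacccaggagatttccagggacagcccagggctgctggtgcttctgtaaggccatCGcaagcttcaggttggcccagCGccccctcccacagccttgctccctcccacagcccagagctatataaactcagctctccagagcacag
Col6a3, upstream of the start, chr1:90843972-90844221, minus strand: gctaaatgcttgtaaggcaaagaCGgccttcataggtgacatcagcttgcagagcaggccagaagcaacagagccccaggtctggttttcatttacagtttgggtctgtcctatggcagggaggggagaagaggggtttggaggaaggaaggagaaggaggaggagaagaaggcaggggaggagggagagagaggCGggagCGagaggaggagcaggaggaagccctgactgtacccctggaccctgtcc
Col3a1, upstream of the start, chr1:45311288-45311537, plus strand: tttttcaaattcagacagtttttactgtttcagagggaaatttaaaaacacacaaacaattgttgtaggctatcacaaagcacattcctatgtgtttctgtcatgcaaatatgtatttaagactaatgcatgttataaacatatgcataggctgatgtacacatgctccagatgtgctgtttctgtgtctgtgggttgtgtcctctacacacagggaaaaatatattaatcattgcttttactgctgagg
Col5a1, upstream of the start, chr2:27886175-27886424, plus strand: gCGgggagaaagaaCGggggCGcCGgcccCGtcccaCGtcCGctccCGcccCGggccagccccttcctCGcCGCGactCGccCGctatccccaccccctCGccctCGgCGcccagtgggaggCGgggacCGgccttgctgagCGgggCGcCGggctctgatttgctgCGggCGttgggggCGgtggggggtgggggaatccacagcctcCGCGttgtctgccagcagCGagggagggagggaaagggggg
Postn holds 4 CpGs in this stretch, Col6a3 holds 3, Col3a1 holds 0 and Col5a1 holds 28. Over the 32851 promoters of the RefSeq table the median was 6, and 44.4% held at most 4 and 7.61% at least 28. Col3a1 shows a start without any CpG upstream that had a peak on both days, though the day 5 peak was only 57 bp wide. The Col5a1 start region had 3764 bp of peak in MEFs and 805, 1343 and 894 bp in the other lists.

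The genes with the most MEF peaks absent on both days were Col4a1 (15), Col4a2 (14), Fbn1 (11), Col5a1 (10), Col14a1 (10) and Tnc (10). At Col4a1 and Col4a2, the shared start region on chromosome 8, from 11312141 to 11313853, had peaks in all 4 lists, with 1584, 707, 1565 and 1499 bp. The widest absent MEF peak was 1487 bp wide, from 11339045 to 11340531, in an intron of Col4a2 and 27.0 kb from both starts. Within Col4a2, 4 regions, 63.3, 70.2, 80.5 and 87.4 kb from the start, had peaks in MEFs and on both days and none in ESCs. The widest peak new on the days was a day 10 peak of 1060 bp in an intron of Col4a1, from 11276681 to 11277740, within a region that also held a MEF peak of 321 bp beside it.

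Fbn1 had 27 regions once peaks within 400 bp of each other were merged. Of these, 11 were in MEFs alone, 5 in MEFs and at day 10 without day 5, 4 on both days alone, 2 at day 5 alone, 3 in ESCs alone and 2 in all 4 lists. The 2 in all lists lay at the second annotated start and near the end of the gene, 1.9 and 204.5 kb from the principal start. The widest absent MEF peak, of 1134 bp, lay 33.0 kb upstream on chromosome 2, from 125540443 to 125541576. The widest new peak, at day 5, covered 705 bp of exon and intron from 125389397 to 125390101, with a fold enrichment over background of 5.86 in the peak caller's output.

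At Col5a1, 10 of 13 regions were in MEFs alone. The widest of the absent peaks was 2117 bp wide and lay 50.7 kb upstream, from 27834641 to 27836757 on chromosome 2. A single new peak, of 530 bp at day 10, lay downstream from 28068297 to 28068826. At Col14a1, 9 of 20 regions were in MEFs alone and 4 in ESCs alone. Its widest absent peak, of 1914 bp, covered exon and intron on chromosome 15 from 55379999 to 55381912, and its widest new peak, of 620 bp at day 10, lay in an intron from 55415627 to 55416246.

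Tnc had 9 of 14 regions in MEFs alone, of which 5 lay upstream of the gene between 11.8 and 46.0 kb from the start. The widest, of 2363 bp, ran from 64076120 to 64078482 on chromosome 4, and none of the 5 had a peak in another list. The start region of Tnc had 1612, 875, 794 and 1244 bp of peak in the 4 lists. At Postn all 6 MEF regions were in MEFs alone, the widest at 54357756 to 54359035, 2.7 kb upstream, and the only other peak of the locus was an ESC peak of 276 bp, 38.5 kb from the start.

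**Figure D4:**
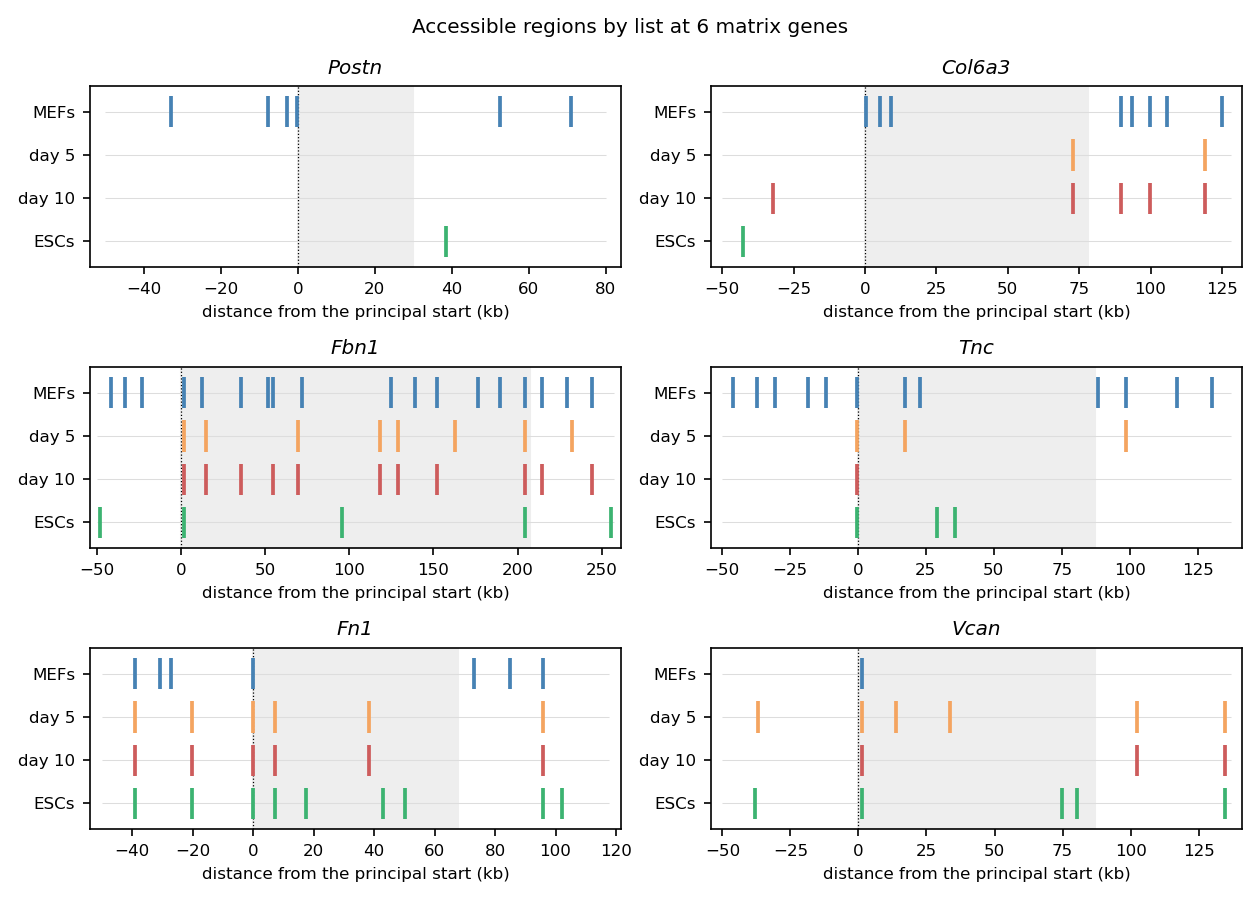
Accessible regions (coloured ticks at the region's midpoint) of the 4 lists (rows) along 6 matrix genes, by distance in kb from the principal start (dotted line), with the gene body in grey and 50 kb shown to each side. Postn and Tnc have ticks mostly in the MEF row, Fbn1 has day 5 and day 10 ticks within the gene, and Fn1 and Vcan have ESC ticks within the gene where MEFs have none.

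The 3 genes with more peaks in ESCs than in MEFs differed in where the peaks lay. Fn1 had peaks in all 4 lists at its start, at a site further upstream and at the start of its neighbour Atic. A region 20.2 kb upstream on chromosome 1 had peaks at day 5 (1002 bp), day 10 (1416 bp) and in ESCs (951 bp) and none in MEFs, and so did one 7.2 kb into the gene, with 281, 581 and 991 bp. The day 10 peak of the first ran from 71672627 to 71674042 and was the widest new peak of the gene. The widest absent MEF peak of Fn1, of 518 bp, lay downstream from 71579752 to 71580269. Vcan had 1 region shared by all lists, 5 day 5 or day 10 regions without a MEF peak and 3 in ESCs alone. Its widest new peak was 1213 bp at day 5, downstream from 89639226 to 89640438 on chromosome 13, and no MEF peak was absent on both days.

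Fbln5 had 12 regions, 4 in ESCs alone, 3 in MEFs alone and 2 in all lists. Its start region, present in all lists, held 1 MEF peak of 2341 bp and 2 ESC peaks with 1238 bp. Its widest MEF peak absent on both days, of 957 bp, lay 12.1 kb upstream on chromosome 12, from 101830675 to 101831631, and was overlapped by an ESC peak of 724 bp. The widest new peak, of 385 bp at day 5, lay in an intron from 101807512 to 101807896. A region 33.2 kb upstream of Fbln5 had peaks of 1106 bp in MEFs, 1170 at day 5 and 844 at day 10 and none in ESCs.

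Both type I collagen genes kept flanking sites on both days that ESCs lacked. Col1a1 had 4 such regions, at 7.7 kb upstream and at 42.8, 54.3 and 56.8 kb downstream of the start, the last pair at starts of Ppp1r9b. The widest MEF peak absent on both days, of 1567 bp, lay 19.0 kb upstream from 94916420 to 94917986, and the widest new one, of 437 bp at day 10, from 95000909 to 95001345 in Ppp1r9b. Col1a2 had 1 such region, 16.3 kb upstream, with 2342, 743 and 528 bp. Its widest absent MEF peak, of 1365 bp, lay just past the gene on chromosome 6, from 4542406 to 4543770, and its widest new one, of 456 bp at day 5, upstream from 4462819 to 4463274.

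Col3a1 had 4 of 8 regions in MEFs alone. The widest, of 1115 bp from 45355190 to 45356304 on chromosome 1, lies in the overlap with the Col5a2 locus. A region 29.7 kb upstream of Col3a1 had peaks at day 5 (526 bp) and at day 10 (574 bp, from 45281548 to 45282121) alone. At Dcn, the widest absent MEF peak, of 1100 bp from 97537073 to 97538172 on chromosome 10, also falls in the Lum locus, and the widest new one, of 716 bp at day 5, lay from 97547730 to 97548445. For Dcn and Lum together, no peak beyond the Dcn start was listed at day 10.

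For the other genes with a start peak in MEFs and none on at least 1 of the days, the widest MEF peak absent on both days was as follows. At Col6a3 it was 924 bp, 124.9 kb downstream of the start on chromosome 1, from 90718563 to 90719486. That of Eln was 545 bp on chromosome 5, from 134680263 to 134680807 in the body of Limk1, and that of Bgn was 868 bp on chromosome X, from 73476255 to 73477122, 6.9 kb upstream. At Fbln2 it was 1468 bp in an intron, from 91244533 to 91246000 on chromosome 6, and at Mfap5 947 bp on the same chromosome, from 122545115 to 122546061. At Fbln1 and Loxl1 it was the start peak itself, from 85205765 to 85206740 on chromosome 15 and from 58311600 to 58313336 on chromosome 9. Among new peaks, one of 645 bp at day 5 lay in an intron of Col6a3, from 90770763 to 90771407, with a fold enrichment of 5.35. One of 880 bp at day 5 lay in an intron of Fbln1, from 85272978 to 85273857, and one of 841 bp at day 5 downstream of Fbln2, from 91277889 to 91278729. At day 10, a peak of 643 bp lay at the start of Rimklb near Mfap5, from 122486215 to 122486857, and one of 1207 bp downstream of Loxl1, from 58279548 to 58280754, and both overlapped ESC peaks. Bgn, Eln and Postn had no new peak on either day.

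Peaks without a MEF counterpart made up a lower share at the matrix loci than in the whole lists, and only at day 10 did the interval lie below the share of the list. Of 151 day 5 peaks there, 60 overlapped no MEF peak (39.7%, 32.3% to 47.7%), against 45.3% of the day 5 list. Of 148 day 10 peaks, 47 did not (31.8%, 24.8% to 39.6%), against 41.1%, and of 148 ESC peaks, 80 did not (54.1%, 46.0% to 61.9%), against 60.9%. Of the day 5 peaks at the loci, 7 (4.64%, 2.26% to 9.26%) were absent in MEFs and present in ESCs, against 8.33% of the day 5 list. Of the day 10 peaks, 9 (6.08%, 3.23% to 11.2%) were, against 10.3%, and both intervals include the share of the list.

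Merging the 4 lists gave 459 regions at the matrix loci, out of 101701. MEFs alone accounted for 196 (42.7%, 38.3% to 47.3%), against 29.5% of all regions. ESCs alone accounted for 66 (14.4%, 11.5% to 17.9%), against 24.1%, and all 4 lists for 49 (10.7%, 8.17% to 13.8%), against 13.8%. Regions with peaks in MEFs and on both days and none in ESCs numbered 32 (6.97%, 4.98% to 9.68%), against 3.70%. Among these were the start regions of Col3a1, Dcn, Mmp2, Mmp14 and Timp3. Regions on both days alone numbered 27 (5.88%, 4.07% to 8.42%), against 6.85%.

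**Figure D5:**
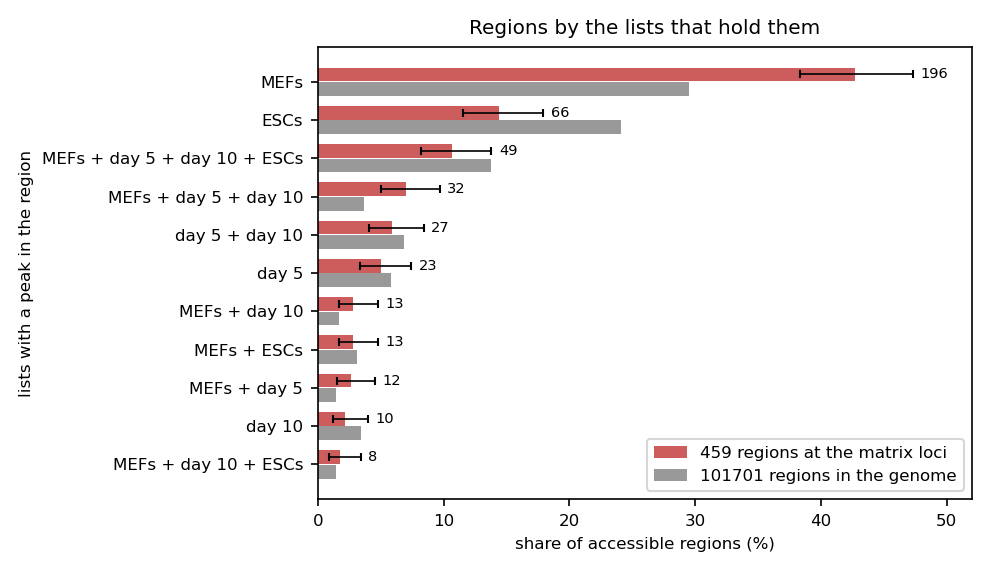
Share of accessible regions (%, horizontal axis) by the lists that hold a peak (rows, those with at least 8 matrix regions) for the 459 regions at the matrix loci (red, with 95% Wilson intervals and counts) and all 101701 regions (grey). The row of MEFs alone stands at 42.7% against 29.5%, and that of ESCs alone at 14.4% against 24.1%.

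Of each MEF peak outside start sites, the central 200 bp were scanned for short motifs in both orientations. The AP-1 motif (TGACTCA or TGAGTCA), a recognition site of the JUN and FOS factors active in fibroblasts, was found in 39 of the 201 windows absent on both days at the matrix loci (19.4%, 14.5% to 25.4%) and in 3 of the 27 present on both days (11.1%, 3.85% to 28.1%). Over all MEF peaks outside start sites the shares were 23.7% and 15.1%. The TEAD motif (CATTCC) was found in 42 absent windows (20.9%, 15.8% to 27.0%) and 3 present ones (11.1%, 3.85% to 28.1%), against 19.1% and 15.0%. The RUNX motif (TGTGGT) was found in 44 (21.9%, 16.7% to 28.1%) and 1 (3.70%, 0.657% to 18.3%), against 19.4% and 14.9%.

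The KLF motif (CCACACCC, CCACGCCC, CCCCACCC or CCCCGCCC) had the opposite order, in 13 absent windows (6.47%, 3.82% to 10.7%) and 6 present ones (22.2%, 10.6% to 40.8%), against 5.58% and 14.1%. The SOX motif (CCATTGT or CCTTTGT) was in 13 (6.47%, 3.82% to 10.7%) and 3 (11.1%, 3.85% to 28.1%), against 6.39% and 9.34%. The octamer (ATGCAAAT) and the CTCF motif were in 3 and 2 absent windows and in 0 present ones each. For each of these 7 motifs, the interval of the absent windows at the matrix loci included the share over all absent MEF peaks. Windows present on both days were richer in G and C, with a median of 53.5%, than those absent, with 47.0%, and the part of base composition in the KLF shares was not tested.

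By gene, absent windows with the AP-1 motif numbered 3 at Col5a1 and at Col12a1 and 2 at 10 other genes. The number was 0 at Fbn1, with 11 absent windows outside start sites, and at Postn, Mfap5 and Thbs1, with 5 each. It was also 0 at Col1a1, Col1a2, Fbln5, Loxl1, Loxl2, Lum, Mmp2 and Sparc, which had 2 to 4 such windows. The windows below are the 200 bp around the midpoint of 3 absent peaks (GRCm38.p6), with AP-1 matches in capitals. The first pair are each the widest absent peak of their gene, shown because their windows hold a match, and the third has the most matches of the 201 windows and was chosen after they were counted.
Col6a3, MEF peak absent on both days, chr1:90718925-90719124, plus strand: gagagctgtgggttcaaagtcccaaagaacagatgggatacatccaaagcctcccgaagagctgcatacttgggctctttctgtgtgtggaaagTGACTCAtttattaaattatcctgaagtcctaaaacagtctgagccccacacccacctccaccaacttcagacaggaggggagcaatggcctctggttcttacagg
Col16a1, MEF peak absent on both days, chr4:130050506-130050705, plus strand: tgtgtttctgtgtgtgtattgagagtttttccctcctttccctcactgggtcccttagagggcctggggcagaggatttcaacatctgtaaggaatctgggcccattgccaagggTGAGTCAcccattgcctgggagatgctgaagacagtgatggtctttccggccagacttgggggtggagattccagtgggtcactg
Col6a2, MEF peak absent on both days, chr10:76648774-76648973, plus strand: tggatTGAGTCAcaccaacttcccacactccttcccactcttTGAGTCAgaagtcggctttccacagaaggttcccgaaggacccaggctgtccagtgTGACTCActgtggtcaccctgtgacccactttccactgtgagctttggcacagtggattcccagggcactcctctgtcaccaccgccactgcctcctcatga
The Col6a3 window is in the peak downstream of the gene described above, that of Col16a1 in an intron 2.8 kb from its start, and that of Col6a2 in a peak of 611 bp, 25.2 kb upstream. None of the 3 peaks was in the ESC list. A match is a description of the letters and does not show that a factor was bound.

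Other genes of the matrix were counted in the same windows, beside the 72.7% (day 5), 67.8% (day 10) and 48.6% (ESCs) of protein-coding genes with a MEF peak that had fewer peaks than in MEFs. Of 19 further collagens, 14 had fewer at day 5, which is near that share, 17 had fewer at day 10 and 14 had fewer in ESCs. Of 12 genes that make, fold or cross-link collagen, 11, 10 and 9 had fewer, and of 23 further glycoproteins and proteoglycans 22, 20 and 19. Of 8 further proteases and inhibitors, 8, 8 and 7 had fewer. Of 13 laminin and basement membrane genes, 10 and 9 had fewer on the days, near the shares of all genes, and 4 had fewer in ESCs. More peaks in ESCs than in MEFs were listed for 7 of these 13, against 34.9% of protein-coding genes. Their loci held 105 peaks in MEFs and 109 in ESCs. These lists are small, and the differences from all genes were not tested.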

How the data were processed

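ATAC-seq was analysed from 4 deposited peak lists (MEFs, OSKM day 5, OSKM day 10, ESCs), each made by the authors from 2 libraries. Per the labels, reads were aligned to mm10 with Bowtie2 (2.2.0 in the submitters' processing notes), low-quality, non-unique and mitochondrial reads were removed, and the peak caller is not given in the sources used here. The deposited score is the −log10 q value times a constant without its decimals, the deposited −log10 q value starts at 1.01 to 1.02, and the deposited fold enrichment (a ratio) is that of the whole called peak. No read counts were used, and 0 columns belonged to another series.

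Peaks were assigned with GENCODE mouse release M21 by overlap of at least 1 bp with a gene body and 50 kb to each side. Start sites were taken as 500 bp to either side of a transcript start. MEF peaks were compared with the other lists by overlap, and peaks within 400 bp were merged into regions. CpG ratios and motifs came from GRCm38.p6. Python 3.11.15, numpy 2.4.6, pandas 2.3.3 and scipy 1.17.1 were used, and the scripts were tested on simulated data. Values are descriptions with 95% Wilson intervals, and no test was run. All 39 genes were named, with single sites given for the 6 genes with most MEF peaks absent on both days, those with more peaks in ESCs than in MEFs, those whose start peak was missing on a day, and Col1a1, Col1a2, Col3a1, Fn1, Postn and Dcn whatever their values. The members and lists were chosen with earlier results of these data known. Other flanks, thresholds, list lengths, overlaps and start definitions were tried.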

Additional observations from a re-analysis of the deposited data

How the results depend on the processing

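A count was taken as moved when it changed by over 1.5 times and a share when it left its 95% interval, by which 19 of the recomputed values moved and 71 did not. With the gene body alone the loci held 131, 68, 65 and 50 peaks (MEFs, day 5, day 10, ESCs), and with 10 kb to each side 178, 92, 86 and 73. With 100 kb the ESC list held 223. With lists of equal length the MEF list held 203, and the covered shares of MEF peaks were 39.9% at day 5, 41.9% at day 10 and 26.1% in ESCs, against 47.4%, 49.5% and 37.3% of all MEF peaks at that length. Without peaks at starts of other genes these shares were 22.4%, 25.5% and 15.0%, and when the overlap had to span at least 50% of both peaks they were 16.4%, 21.0% and 11.7%. For neither setting were the shares computed over all MEF peaks. The number of genes with fewer peaks than in MEFs ranged from 25 to 36. Leaving out each replicate was not run, since the lists do not keep replicates apart. No paired analysis was possible because each group has 1 list and no result comes from a test. The depth behind the lists is unknown, so an unlisted site is not shown to be closed.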
